A study of Homo sapiens with 7 samples.

Results

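The promoter-proximal region examined here is the first kilobase of the average gene profile, the 1000 positions from 0 on, of 122001 positions (-2000 to 120000) in each of 7 libraries of global run-on sequencing (GRO-seq). These positions were chosen by distance alone and not by their signal, and were read in 10-bp and 50-bp bins. In GRO-seq, nuclei are isolated and RNA polymerases already engaged on DNA extend their transcripts with a bromouridine nucleotide, so that the captured RNA marks where polymerases were transcribing. The run-on lasted 5 minutes, per the labels. All libraries came from MRC5VA cells, an immortalised human lung fibroblast line grown in standard medium. Untreated cells (labelled 0 h) gave 1 library. Cells exposed to ultraviolet C (UVC), at a dose of 15 J/m2, gave 1 library per collection time, which was 2, 5, 8, 10, 12 or 24 h later. The profiles average over genes and hold no single gene. The cell line could therefore not be checked against marker genes, no gene or sequence is named, and position 0 is taken as the transcription start because of the sharp maximum just after it.

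After initiation, RNA polymerase II commonly halts a short distance into the gene, held there by the factors DSIF and NELF, until the kinase P-TEFb releases it into the gene body. In run-on profiles this pause is seen as a peak just after the start, and the peak height over the gene body is the usual measure of pausing. UVC joins neighbouring pyrimidines in DNA into lesions that block elongating polymerases, and the lesions in transcribed strands are removed by transcription-coupled repair.

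The signal is an average read coverage whose scaling is not given in the sources used here. Each value was therefore divided by the mean of the same library from 1 to 10 kb, called the early gene body, which removes the scale of the library. A relative signal of 1 thus equals the early gene body. The region is summarised by 3 ratios. Windows include their start and not their end. The start ratio is the mean from 0 to 1 kb divided by the early gene body. The peak ratio is the highest 10-bp bin starting between 0 and 490 divided by the early gene body. The front-to-back ratio is the mean from 100 to 200 bp divided by the mean from 900 to 1000 bp, and it uses no position outside the first kilobase. From 55557 to 105759 recovered reads covered an average position of the first kilobase, and 95% intervals given here cover counting error only. In the early gene body, neighbouring 500-bp bins of the ratio between a UV library and the untreated library scattered with 0.802 to 1.94 times the SD that counting gives. With 1 library per condition, the spread between cultures is unknown and no test between conditions was possible.

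In untreated cells the first kilobase held a single peak followed by a long decline. The relative signal was 1.83 in the bin from 0 to 49, 2.09 at 50, 2.289 at 100, 2.286 at 150, 2.13 at 200 and 1.96 at 250 (bins named by their starts). The highest 10-bp bin started at 140 and reached 2.33 (95% interval 2.31 to 2.34). From the highest 50-bp bin to the bin at 300 the signal dropped by 18.8%. It then formed a gently sloping shelf, with 1.76 at 400, 1.73 at 500, 1.72 at 600, 1.70 at 700, 1.66 at 800 and 1.59 at 950. The shelf had no maximum of its own, since the last bin was the lowest after the peak, but it stood well above the mean of the early gene body throughout. The early gene body itself sloped, from 1.55 in its bin at 1000 to 0.892 in its bin at 9950.

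By 2 h after UVC the peak was still in place but stood little above the gene body. Its highest 10-bp bin started at 150 and had a relative signal of 1.31 (95% interval 1.30 to 1.32), which is 0.563 times the untreated peak ratio. The bin from 0 to 49 lay slightly below the early gene body, at 0.978, against 1.83 in untreated cells. After the peak the signal dipped to 1.13 in the bin at 350 and then climbed to 1.27 in the bin at 850, so that the back of the kilobase was nearly as high as the peak itself. The front-to-back ratio was 1.02 (95% interval 1.01 to 1.03), against 1.43 (1.41 to 1.44) in untreated cells.

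**Figure D1:**
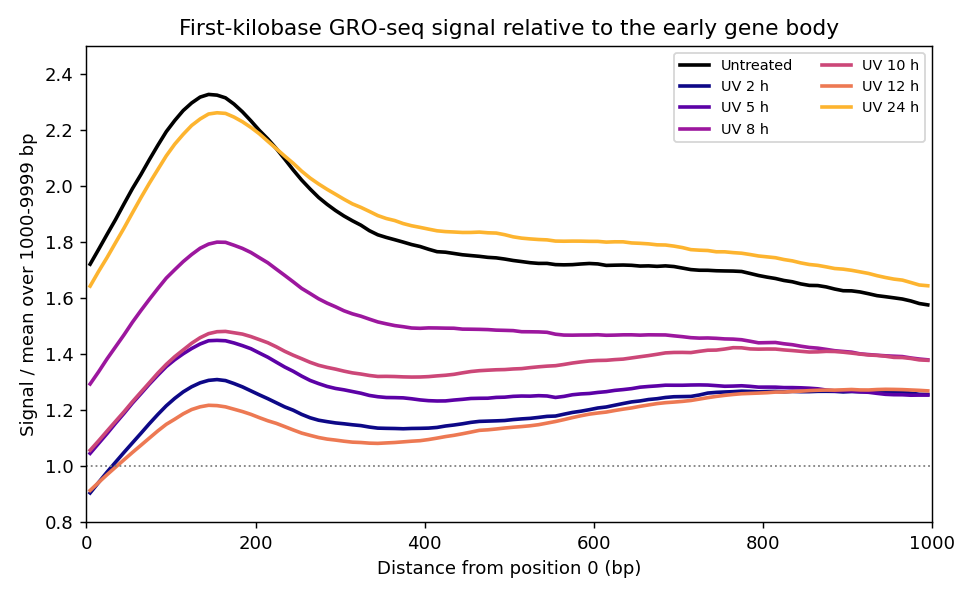
Relative signal (deposited signal divided by the mean of the same library from 1 to 10 kb, no unit) in 10-bp bins against distance from position 0 in bp, 1 line per library. The untreated and 24 h lines peak at 2.33 and 2.26, the 8 h line peaks at 1.80, and the 2, 5, 10 and 12 h lines have lower peaks followed by a dip and a second rise.

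The peak kept its place in all 7 libraries. The highest 10-bp bin before 500 started at 140 in the untreated and 12 h libraries, at 150 after 2, 5, 8 and 24 h, and at 160 after 10 h. These positions are blurred, and may be displaced from the read starts, because the profiles behave as coverage by reads extended to 250 bases. How the reads were extended is not given, so the positions are those of the coverage and not of the polymerases. The peak stood 1.35 times as high as the 10-bp bin at 0 in untreated cells, and in the UV libraries this ratio lay between 1.33 after 12 h and 1.45 after 2 h. The signal before the start had a local minimum between -160 and -120. The peak was 1.89 times that minimum in untreated cells, 2.85 times after 2 h, 2.15 times after 5 h and between 1.88 and 1.95 times at the other times. Measured against the signal just upstream, then, the peak of the 2 h library was the highest of the 7, although it was the second lowest against the gene body. The upstream minimum itself was lowest in that library, with a relative signal of 0.459 against 1.23 in untreated cells. In the other UV libraries it lay between 0.647 and 1.18. On the deposited scale the 2 h peak was lower than the untreated peak (7.75 and 9.51).

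The peak ratio was 2.33 in untreated cells, 1.31 after 2 h, 1.45 after 5 h, 1.80 after 8 h, 1.48 after 10 h, 1.22 after 12 h and 2.26 after 24 h. On this reference window no UV library reached the untreated value, and those after 2 and 12 h were lowest. The log2 difference from untreated was -0.83 after 2 h (95% interval -0.84 to -0.82), -0.68 after 5 h, -0.37 after 8 h, -0.65 after 10 h, -0.93 after 12 h (-0.95 to -0.92) and -0.041 after 24 h (-0.054 to -0.029). With the reference at 10 to 30 kb the differences in order of time were -0.41, -0.54, -0.23, -0.55, -0.87 and -0.0095. After subtraction of the lowest 1-kb mean it ran from -0.77 after 8 h to -1.52 after 12 h among the 5 earlier libraries. Of the height by which the untreated peak exceeded its early gene body, the 2 h peak had 23.3%, the 5 h peak 33.8%, the 8 h peak 60.3%, the 10 h peak 36.3%, the 12 h peak 16.4% and the 24 h peak 95.1%. Ordered by peak ratio the libraries ran 12, 2, 5, 10, 8 and 24 h and then untreated, whereas with the reference at 10 to 30 kb they ran 12, 10, 5, 2, 8 and 24 h and then untreated. On the reference of 1 to 10 kb the closest neighbours were 5 and 10 h, whose log2 difference was 0.032 (95% interval 0.017 to 0.046).

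The start ratio, which takes in the whole kilobase, was 1.83 in untreated cells (95% interval 1.82 to 1.83). It was 1.204 after 2 h, 1.28 after 5 h, 1.51 after 8 h, 1.37 after 10 h, 1.17 after 12 h and 1.87 after 24 h (1.86 to 1.87). The 5 libraries from 2 to 12 h thus lay below untreated, and the 24 h library lay slightly above it. As log2 differences from untreated these are -0.60 after 2 h, -0.51 after 5 h, -0.27 after 8 h, -0.42 after 10 h, -0.64 after 12 h and 0.031 after 24 h, with counting standard errors of 0.0037 to 0.0042. The sizes depend on the reference window. With 10 to 30 kb as the reference the differences in order of time were -0.18, -0.37, -0.13, -0.32, -0.57 and 0.063, so that the 2 h library lay above those of 5 and 10 h. Subtracting the lowest 1-kb mean of each profile took the differences of the 5 earlier libraries to -1.12, -0.96, -0.62, -0.81 and -1.13. With 1 to 10 kb as the reference, the start ratio and the peak ratio after 24 h stood on opposite sides of untreated. With 10 to 30 kb the peak ratio difference was -0.0095, of the order of the counting standard error at 1 to 10 kb (0.0064). On the deposited scale the 24 h peak was higher than the untreated peak (9.86 and 9.51).

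**Figure D2:**
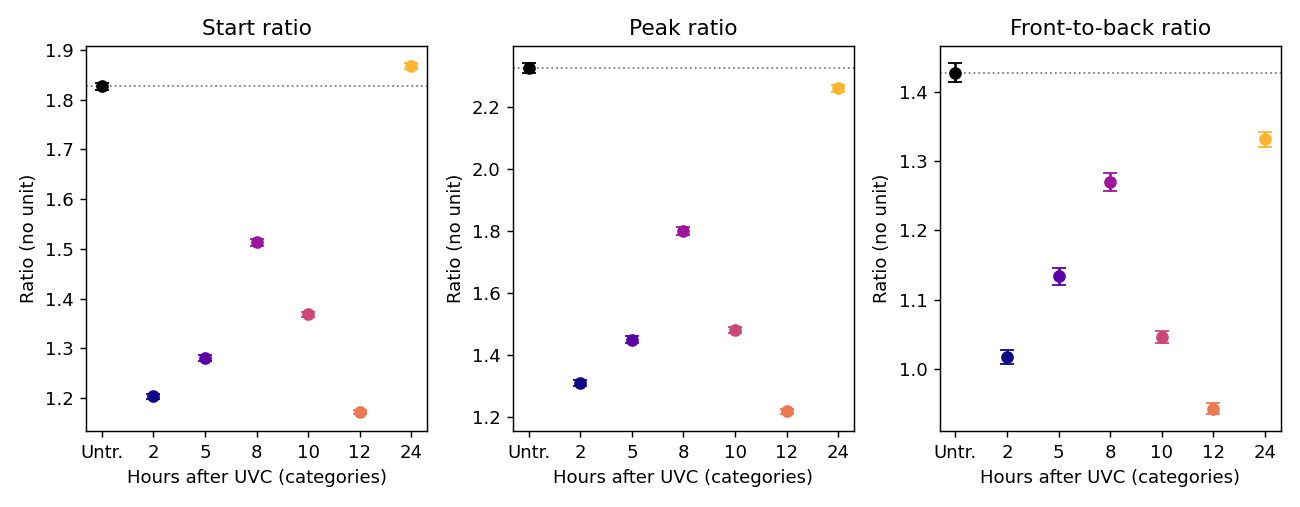
Start ratio, peak ratio and front-to-back ratio (no unit) of each library against hours after UVC as categories, with 95% counting intervals as bars and the untreated value as a dotted line, on axes that do not start at 0. All 3 ratios were higher at each step from 2 to 8 h, lower after 10 and 12 h, and near untreated after 24 h.

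A ratio to the gene body can differ because the start, the body or both differ. On the deposited scale the mean from 0 to 1 kb was 7.46 in untreated cells, 7.13 after 2 h, 6.48 after 5 h, 7.47 after 8 h, 6.83 after 10 h, 5.91 after 12 h and 8.14 after 24 h. The mean from 1 to 10 kb was 4.08 in untreated cells, 5.92 after 2 h, 5.06 after 5 h, 4.94 after 8 h, 4.99 after 10 h, 5.04 after 12 h and 4.36 after 24 h. After 2 h the start term was -0.066 and the body term 0.54 on the log2 scale, so most of the lower start ratio lay in the higher gene body. After 12 h the terms were -0.34 and 0.30, of nearly equal size and opposite sign. After 8 h the start term was 0.0017 and the body term 0.27. The low start ratios after 2 and 12 h thus had different compositions, and with the reference at 10 to 30 kb the log2 differences of these libraries were far apart (-0.18 after 2 h and -0.57 after 12 h). This division rests on the deposited scale, which is not stated, while the start ratio itself does not.

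**Figure D3:**
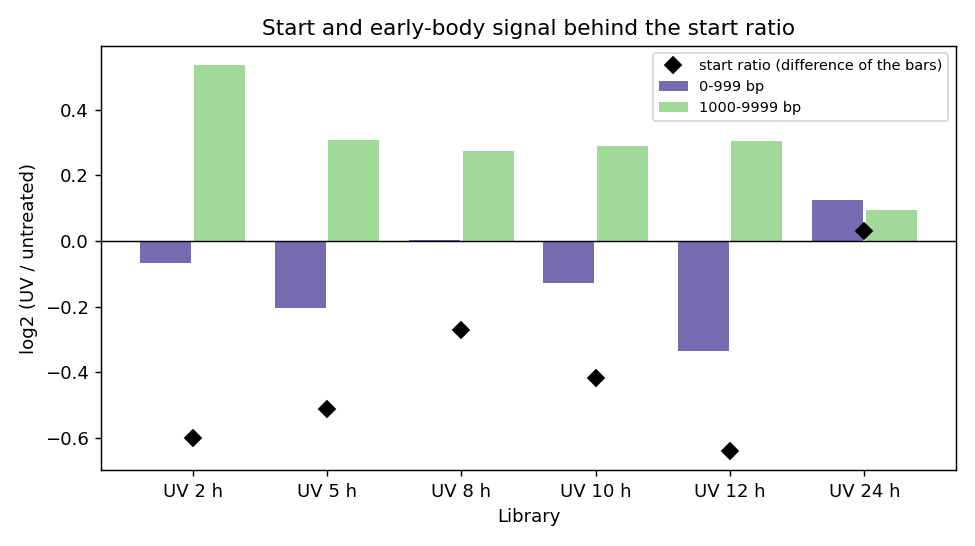
Log2 ratio of each UV library to untreated for the mean deposited signal from 0 to 1 kb and from 1 to 10 kb (bars), and for the start ratio, which is their difference (diamonds). The body bar is the larger after 2, 5, 8 and 10 h, and after 12 h the start bar (-0.34) and the body bar (0.30) are of similar length.

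The main width was that at the midpoint level between the peak and the early gene body, described below. Widths at 90% of the total signal of the peak, an alternative, are given first. The 90% level lies at unlike heights above the early gene body, so the widths also depend on the peak ratio. After 12 h it lay below the midpoint between the peak and the early gene body, where the width was 189 bp. The distance over which the signal stayed above 90% of the peak was 160.5 bp in untreated cells, 177 bp after 2 h, 188 bp after 5 h, 182 bp after 8 h, 229.98 bp after 10 h, 215 bp after 12 h and 182 bp after 24 h. All of these are under the 250 bases of read extension, so they describe the blurred peak and not the spread of polymerases. The left edge at this level lay between 72.7 and 84.8 bp in all 7 libraries. The right edge lay at 235 bp in untreated cells, between 260.0 and 266 bp after 2, 5, 8 and 24 h, at 288 bp after 12 h and at 315 bp after 10 h. At this level the left edges thus spanned less distance than the right edges.

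At the midpoint level between the peak and the early gene body the width had no single meaning. In untreated cells the signal reached that level at 824 bp, at the far end of the shelf, which gave a width of 830 bp (829.7). After 2 h and 12 h the dip after the peak went below the midpoint level, and the widths were 219 bp and 189 bp. After 5 h and 10 h the dip stayed above it, and the widths of 1060 bp (1059.7) and 1341 bp ran through the second rise and beyond the kilobase. The widths were 890 bp (890.4) after 8 h and 1009 bp after 24 h. A small difference in the depth of the dip thus decided whether the peak and the later part of the kilobase were measured apart or together.

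As a percentage of the total signal, the decline after the peak was shallower in all UV libraries than in untreated cells. The early gene body level makes up more of the peak where the peak ratio is lower. As a share of the peak's height above that level, the decline by 300 bp exceeded untreated after 2, 5 and 12 h. It was below untreated after 8, 10 and 24 h. From the highest 50-bp bin to the bin at 300, relative signal went from 2.289 to 1.859 in untreated cells. It went from 1.292 to 1.144 after 2 h and from 2.241 to 1.923 after 24 h. From the highest 50-bp bin to the bin at 300 the signal changed by -18.8% in untreated cells, -11.5% after 2 h, -12.3% after 5 h, -14.0% after 8 h, -9.85% after 10 h, -9.79% after 12 h and -14.2% after 24 h. From the bin at 300 to the bin at 950 it changed by -14.5% in untreated cells, -9.66% after 8 h and -13.9% after 24 h. It changed by 10.2% after 2 h, -0.46% after 5 h, 4.10% after 10 h and 17.3% after 12 h. The front-to-back ratio, 1.43 in untreated cells, was 1.02 after 2 h, 1.13 after 5 h, 1.27 after 8 h, 1.05 after 10 h, 0.943 after 12 h and 1.33 after 24 h. All UV libraries lay below untreated, with log2 differences of -0.17 after 8 h (-0.27 after background subtraction), -0.60 after 12 h and -0.10 after 24 h, and the 12 h library alone lay under 1. The changes from the bin at 300 to the bin at 950 formed a graded series, from -14.5% in untreated cells to 17.3% after 12 h. Beyond 300 bp the signal kept declining in the untreated, 8 h and 24 h libraries. It was level or climbing in the 2, 5, 10 and 12 h libraries.

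In the latter 4 libraries the climb made a broad shoulder. Its size is the highest 50-bp bin after the dip less the lowest bin after the peak, in units of the early gene body. After 2 h the dip was 1.13 at 350 and the shoulder 1.27 at 850, a size of 0.13 (counting SE 0.0065). After 5 h the dip was 1.23 at 400 and the shoulder 1.29 at 700, a size of 0.054 (SE 0.0074). After 10 h the dip was 1.32 at 350 and the shoulder 1.42 at 750, a size of 0.10 (SE 0.0063). After 12 h the dip was 1.08 at 300 and the shoulder 1.27 at 900, the largest of the 4 at 0.19 (SE 0.0051). As a comparison, the largest rise from a 50-bp bin to a later bin was taken in each kilobase of the early gene body. It was at most 0.029 in any library (after 8 h, in the kilobase from 6000 bp). All 4 shoulders thus exceeded this local unevenness of the gene body. The untreated, 8 h and 24 h libraries had none, as their lowest bin after the peak was the last one. The highest 50-bp bin of the early gene body was its first, at 1000, in all 7. In the libraries with a shoulder that bin lay somewhat below the shoulder. It was 1.249 after 2 h, 1.250 after 5 h, 1.368 after 10 h and 1.268 after 12 h.

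In the 12 h library the shoulder was higher than the peak, at 1.06 times its highest 50-bp peak bin. The highest 10-bp bin of the kilobase started at 940 there, with a relative signal of 1.274 against 1.217 at the peak. The shoulder was 0.980 times the peak after 2 h, 0.963 times after 10 h and 0.897 times after 5 h. Relative signal at the back was also alike between libraries whose peaks differed. From 900 to 1000 bp it was 1.264 after 2 h, 1.259 after 5 h and 1.273 after 12 h, while from 100 to 200 bp it was 1.29, 1.43 and 1.1998. The 8 h and 10 h libraries had 1.393 and 1.391 at the back and 1.77 and 1.45 at the front.

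Relative to untreated, the shortfall from 2 to 12 h was larger at the front of the kilobase than at its back. It was deepest in the bin at 0, except after 12 h, where the lowest ratio (0.523) lay in the bin at 100. After 2 h the relative signal was 0.535 times untreated in the bin at 0, 0.565 times at 150, 0.648 times at 400, 0.738 times at 700 and 0.793 times at 950. After 12 h it was 0.530 times at 0, 0.526 times at 150, 0.627 times at 400, 0.729 times at 700 and 0.801 times at 950. The 5 h library ran from 0.611 to 0.789 times untreated, the 10 h library from 0.616 to 0.871 times and the 8 h library from 0.756 to 0.873 times, each lowest at 0 and highest at 950. After 10 h the front was as low as after 5 h (0.616 and 0.611 times at 0) and the back as high as after 8 h (0.871 and 0.873 times at 950). After 24 h the ratio was 0.955 at 0, passed 1 between the bins at 150 (0.980) and 200 (1.001), and was 1.04 at 950, so the front of the kilobase stayed under untreated and the rest lay over it.

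**Figure D4:**
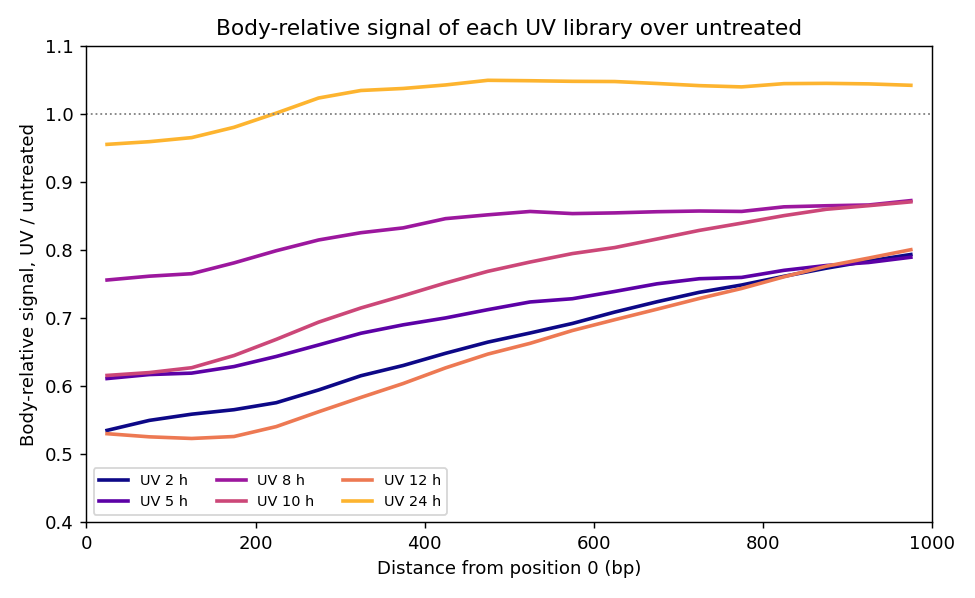
Relative signal of each UV library divided by that of the untreated library in 50-bp bins, against distance from position 0 in bp, with 1 (equal to untreated) as a dotted line. The lines from 2 to 12 h end higher than they begin (0.535 and 0.793 after 2 h), the 12 h line having its lowest value, 0.523, in the bin at 100, and the 24 h line crosses 1 near 200 bp.

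Counted by bins, at least a 1.2-fold lower relative signal than untreated was found in 20 of 20 bins of the first kilobase after 2 h, where 87.8% of the 2440 bins of the whole profile passed. After 5 h it was found in 20 of 20 (80.2% of all bins), after 8 h in 8 of 20 (77% of all), after 10 h in 15 of 20 (73.7%), after 12 h in 20 of 20 (72.1%) and after 24 h in 0 of 20 (0%). The counts are near or below the share of the whole profile after 8 and 10 h and above it after 2, 5 and 12 h. Those shares are high because most of the profile farther out is also low relative to the early gene body. The 8 bins passed after 8 h were those up to 400 bp, and the 15 bins passed after 10 h those up to 750 bp. In the early gene body itself, at most 5 of 180 bins passed at any time. That low count follows largely from the division, as each library is divided by its mean over these same bins. No bin of the profile was at least 1.2-fold higher in any UV library.

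On the deposited scale the back of the kilobase lay over untreated and the front under it after 2, 8 and 10 h. After 2 h the bin at 0 was 0.776 times untreated and the bin at 950 was 1.15 times, and the 9 bins from 550 onward lay above untreated (18% of all bins of the profile did). After 10 h the 6 bins from 700 onward lay above (27.2% of all), and after 8 h the 13 bins from 350 onward (23.2% of all). After 5 h and 12 h 0 of 20 bins lay above untreated (21.6% and 33.6% of all), with the highest ratios, 0.978 and 0.989, in the bin at 950. After 24 h 20 of 20 lay above (46.6% of all). With each profile scaled to its own sum the counts were 15 after 2 h, 10 after 5 h, 18 after 8 h, 10 after 10 h, 1 after 12 h and 20 after 24 h, beside 23.7%, 28.1%, 31.4%, 35.7%, 36.1% and 31.9% of all bins. Where the crossing lies thus depends on the scale, while the relation of front to back does not.

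The division of the signal within the kilobase needs neither a scale nor a reference window. In untreated cells 29.1% of the signal from 0 to 1 kb lay in the 250 bp from 0, and 22.4% lay in the 250 bp from 750. After 2 h these shares were 24.6% and 26.3%, after 5 h 25.9% and 24.8%, after 8 h 27.1% and 23.4%, after 10 h 24.7% and 25.7%, after 12 h 23.97% and 27.0%, and after 24 h 27.7% and 22.9%. Counting standard errors were at most 0.076 percentage points. The back stretch thus held more than the front one after 2, 10 and 12 h, and less in the other libraries. The stretches between them differed less, from 23.5% after 12 h to 25.4% after 24 h for 250 to 500 bp, and from 23.5% in untreated cells to 25.5% after 12 h for 500 to 750 bp. The mean distance of the signal from position 0 was 473 bp in untreated cells, 509 bp after 2 h, 497 bp after 5 h, 485 bp after 8 h, 506 bp after 10 h, 515 bp after 12 h and 480.2 bp after 24 h.

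**Figure D5:**
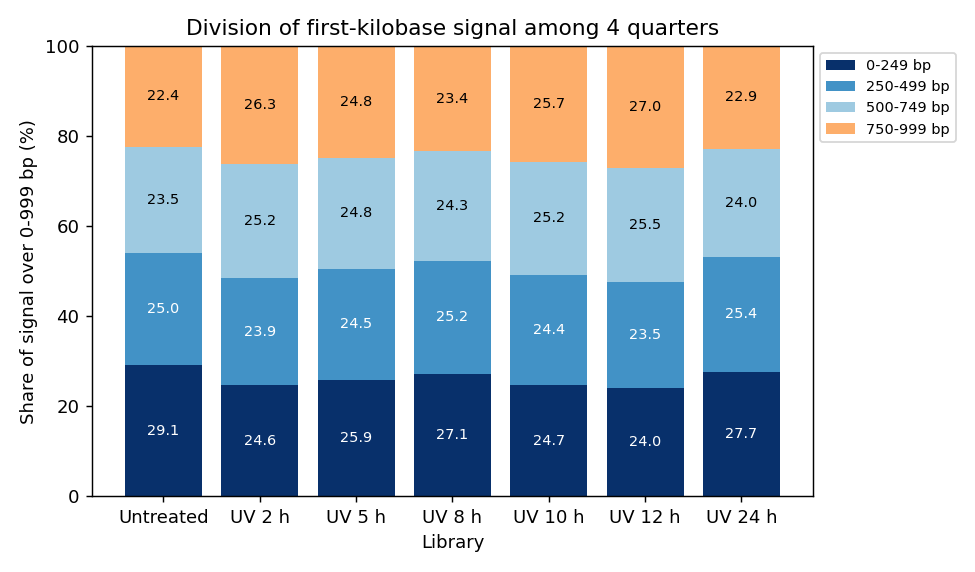
Percentage of the signal from 0 to 1 kb that lay in each 250-bp stretch, 1 stacked bar per library, with the value printed in each segment. The front stretch (bottom) is largest in untreated cells at 29.1% and smallest after 12 h, where the back stretch (top) reaches 27.0%.

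Whether the 3 ratios followed time was examined across the 6 UV libraries by exact two-sided permutation tests, with Benjamini-Hochberg adjustment over the 3 ratios for each coefficient. For the start ratio Spearman's rho was 0.37 (exact permutation p = 0.497, adjusted p = 0.658) and Pearson's r was 0.81 (exact permutation p = 0.0722, adjusted p = 0.146). For the peak ratio rho was 0.37 (exact permutation p = 0.497, adjusted p = 0.658) and r was 0.76 (exact permutation p = 0.0972, adjusted p = 0.146). For the front-to-back ratio rho was 0.26 (exact permutation p = 0.658, adjusted p = 0.658) and r was 0.53 (exact permutation p = 0.294, adjusted p = 0.294). None passed 0.05, although 6 libraries allow an exact p as low as 0.0028. Without the 2 h and 24 h libraries, farthest from the median time, r over the other 4 was -0.32, -0.46 and -0.67, in the order start, peak and front-to-back ratio. Without the 24 h library alone, rho was -0.10, -0.10 and -0.30, and r was 0.13, -0.0047 and -0.20. Without the 2 h library alone, rho was 0.30, 0.30 and 0.10, and r was 0.78, 0.72 and 0.43. The positive values thus rest largely on the 24 h library, although r of the start ratio stayed positive without it (0.13).

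The 2, 5 and 8 h libraries were the least deep of the UV libraries (12003109 to 12218395 recovered reads) and the 10, 12 and 24 h libraries the deepest (19539255 to 25795781). Within the former all 3 ratios were in the order of time (rho 1), and within the latter rho was 0.50 for each. With 3 libraries an exact two-sided p cannot go below 0.333. The step from 8 to 10 h, at which all 3 ratios were lower, is also the step between these depth classes, and the part of depth in it was not tested. The untreated library had 15379829 recovered reads, between the classes.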

How the data were processed

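The authors deposited for each of the 7 libraries an average gene profile, a linear coverage signal for every base from -2000 to 120000. Per the submitters' processing notes, BWA 0.5.9 and the builds hg19 and GRCh37 were used. Libraries were strand-specific, per the labels' protocols. The gene list, strand handling, read extension and scaling are not given in the sources used here, and the reference genome was not used.

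All values (100% per library, within 0.01 steps) were integer multiples of a library-specific step, and the autocorrelation of base-to-base differences was lowest 250 bases apart. Reads were recovered from both (12003109 to 25795781 per library, a read counting again for each gene it falls in). Counting errors treated read starts as Poisson, with each read covering 250 bases. PCR duplicates cannot be recognised. Python 3.11.15 with numpy 2.4.6 was used, and the code was tested on simulated profiles.

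Bins named are the highest, the lowest after it, the shoulder and fixed starts between 0 and 950. Region, measures and alternatives were chosen with earlier results of these data known. The profile-sum scaling, the changes around the bin at 300 and the 250-bp shares were chosen after seeing the values.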

Additional observations from a re-analysis of the deposited data

How the results depend on the processing

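Values are in the order 2, 5, 8, 10, 12 and 24 h after UVC, as log2 differences from untreated unless stated. A value was taken to move when it left its 95% counting interval, which is narrow at this depth. No paired analysis was possible because no condition was repeated. No difference in start, peak or front-to-back ratio changed sign under any alternative run. For the peak ratio after 24 h with 10 to 30 kb, however, the difference was only -0.0095. The counting standard error of that difference at 1 to 10 kb was 0.0064.

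The start ratio was -0.63, -0.54, -0.29, -0.43, -0.66 and 0.041 with the reference starting at 2 kb. It was -0.18, -0.37, -0.13, -0.32, -0.57 and 0.063 with 10 to 30 kb, and -0.56, -0.49, -0.25, -0.34, -0.56 and 0.080 with medians. After subtraction of the lowest 1-kb mean it was -1.12, -0.96, -0.62, -0.81, -1.13 and 0.040. That mean was 54.3% of the early gene body in untreated cells, 54.1% after 24 h and 29.4% to 39.6% at the other times, so the subtraction removed unequal shares. The peak ratio was -0.86, -0.71, -0.39, -0.66, -0.96 and -0.032 with the reference starting at 2 kb. It was -0.41, -0.54, -0.23, -0.55, -0.87 and -0.0095 with 10 to 30 kb, and -1.44, -1.20, -0.77, -1.13, -1.52 and -0.059 after background subtraction. Bins of 50 bp moved it after 10 h only, to -0.63. The front-to-back ratio was -0.44, -0.29, -0.14, -0.40, -0.53 and -0.083 with 250-bp windows and -0.69, -0.47, -0.27, -0.63, -0.84 and -0.14 after background subtraction. Windows of 50 bp left it within its interval in all 6.

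Without the 24 h library the relation to time changed sign in 5 of 6 coefficients. Spearman's coefficient became -0.10 for start and peak ratio and -0.30 for the front-to-back ratio, and r became -0.0047 for the peak ratio and -0.20 for the front-to-back ratio. The r of the start ratio was 0.13. No relation passed 0.05 under any alternative.

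Peak widths (bp, untreated first) were 160.5, 177, 188, 182, 229.98, 215 and 182 at 90% of the peak. At 75% they were 467, 5833, 1788, 1044, 2075, 9495 and 895, so that level was often reached only in the gene body. At both levels the width moved from the main width, taken at the midpoint level, in all 7 libraries. With 50-bp bins the width at the midpoint level moved to 872 in untreated cells, 246 after 2 h, 207 after 12 h and 1026 after 24 h. The shoulder stayed within its interval with 10-bp and 100-bp bins in all 7 libraries. The number of the 20 bins above untreated went from 9, 0, 13, 6, 0 and 20 to 15, 10, 18, 10, 1 and 20 with profile-sum scaling, an alternative chosen after seeing the data.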
